A study of Mus musculus with 4 samples.

Results

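Core cardiac transcription factor genes were examined for crosslinks of PTBP1, polypyrimidine tract binding protein 1, in the mouse heart. The set holds 10 genes: Gata4, Gata6, Tbx5, Tbx20, Mef2a, Mef2c, Mef2d, Nkx2-5, Hand2 and Meis1. Its members were all clusters of crosslinked RNA whose midpoint lay within the GRCm38 span of one of these genes, on the strand of that gene. There were 519 such clusters of 376266 in replicate 1 and 528 of 388894 in replicate 2. PTBP1 had been measured by enhanced crosslinking and immunoprecipitation (eCLIP), which fixes RNA to bound protein by ultraviolet light, shortens it with RNase and pulls down the complex with an antibody. There were 2 PTBP1 immunoprecipitates and 2 size-matched inputs, each input being RNA of the same lysate that never met the antibody and was cut from the same size range. All 4 samples were frozen whole heart of WT C57BL/6 mice, and the labels name no treatment and no age. Nothing in the labels says that the lysates came from separate mice, so the spread between replicates may be technical.

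PTBP1 is an RNA-binding protein that binds pyrimidine-rich stretches, mostly in introns, and is known for repressing the inclusion of neighbouring exons in cells other than mature neurons and muscle. The genes of the set encode DNA-binding proteins that together switch on the contractile and conduction genes of the heart. GATA4, TBX5, NKX2-5, MEF2C and HAND2 bind one another and shared enhancers, TBX20 represses as well as activates, and MEIS1 restrains the division of heart muscle cells after birth. Transcripts of the MEF2 genes are themselves spliced in alternative forms that differ between muscle and other tissues.

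The values are those of the authors' deposited tables: per cluster, the log2 fold of the immunoprecipitate over its own input and a −log10 p, which is 0 wherever the fold is negative. Enriched clusters are those that reach 3 on both scales, the log2 fold and the −log10 p. Reproducible clusters are enriched ones that share at least 1 nt, strand included, with an enriched cluster in the other replicate. Reads behind a cluster were not used here, so single folds carry no interval. For the spread, each replicate 1 cluster with an overlap was paired with the replicate 2 cluster that shared most nucleotides. A replicate 2 cluster can thus occur in several pairs. Over the 210643 such pairs of the whole tables, the folds of the replicates differed with a standard deviation of 1.01 log2 units. Over the 356 pairs in the set it was 0.96. Sites that differ by 1 log2 unit or less are therefore not resolved here.

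Clusters lay in genes of the cell types of the heart. All 5 cardiomyocyte markers (Myh6, Ttn, Actc1, Tnnt2, Ryr2) held clusters, 886 in replicate 1 and 930 in replicate 2. All 5 fibroblast, 4 endothelial, 4 pericyte or smooth muscle and 3 macrophage markers held clusters as well. These counts include clusters below input. The median of the median log2 folds of the genes was −2.56 and −2.45 for cardiomyocyte markers and 0.62 and −0.16 for macrophage markers. It was 1.36 and 1.20 for fibroblast, 1.54 and 1.35 for endothelial, and 2.43 and 1.82 for pericyte or smooth muscle markers. Genes of a list did not all go the same way. In both replicates, 3 cardiomyocyte markers had negative medians and 2 had positive ones, Myh6 (0.52 and 0.41) and Ryr2 (0.08 and 0.18). Of the fibroblast markers, 4 were positive in both and 1, Tcf21, was negative in both (−2.18 and −1.38). Of 6 markers of skeletal muscle, liver and brain, 0 had clusters in both replicates, and Alb had 2 in replicate 2. Whole heart mixes these cell types, so more cells of a type and more RNA per cell cannot be told apart, nor can the cell type in which a transcript was bound.

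PTBP1 crosslinks reached the calling thresholds at shared sites of both lysates in 5 of the 10 genes. The other 5 held no reproducible cluster, though Tbx5 and Gata6 among them had shared sites above input at lower folds, given below. Tbx20 held the most enriched clusters, followed by Mef2a and Mef2c, with fewer in Meis1 and a single one in Gata4. In replicate 1, 67 clusters of the set (12.9%) were enriched, against 6.31% of all clusters. In replicate 2 there were 54 (10.2%), against 4.71% of all clusters. Tbx20 alone supplied 25 and 22 of these. Without it, which is a choice made after seeing the data, 42 of 451 clusters (9.31%) and 32 of 463 (6.91%) were enriched.

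An enriched cluster of the other replicate overlapped 48 of the 67 in replicate 1 and 43 of the 54 in replicate 2. These are 71.6% and 79.6% of the enriched clusters of the set, against 63.0% and 78.8% of enriched clusters in the whole tables, so in replicate 2 the shares were nearly equal. As a share of all clusters in the tables, enriched or not, reproducible ones made up 3.98% in replicate 1 and 3.72% in replicate 2. Joined where they touched, the reproducible clusters of the set made 28 regions: 10 in Mef2a, 9 in Tbx20, 5 in Mef2c, 3 in Meis1 and 1 in Gata4. Thus 5 of 10 genes held a reproducible cluster, against 25.2% among 13373 genes that had clusters in each replicate. Those 13373 include genes with as few as 1 cluster in a replicate, whereas the 5 genes held between 50 and 132 each in replicate 1. The comparison was not matched for the number of clusters per gene. The 10 genes were chosen with results of these data known, so these counts are a description and no test of the set was made.

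**Figure D1:**
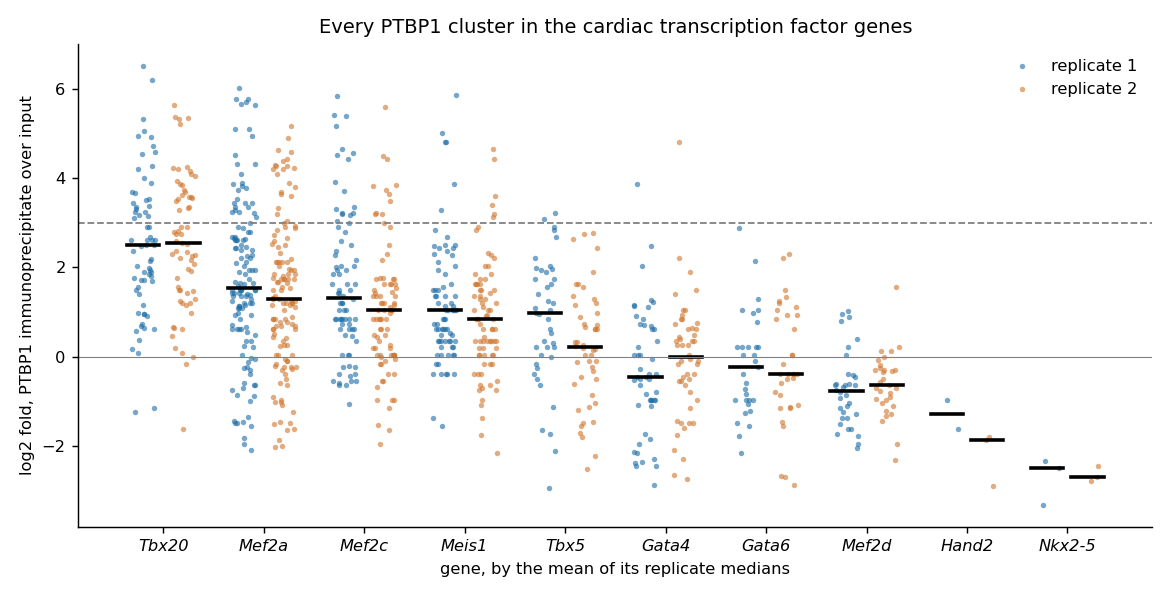
Log2 fold of the PTBP1 immunoprecipitate over its input (vertical axis) for every cluster in the 10 genes, in replicate 1 (blue) and replicate 2 (orange), with genes ordered along the horizontal axis by the mean of their replicate medians. Each point is a cluster, black bars are medians and the dashed line is the log2 fold of 3 used for calling. Tbx20 has medians of 2.50 and 2.55, and all points of Nkx2-5 and Hand2 lie below 0.

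The medians of the genes ran over about 5 log2 units. The median log2 fold over the clusters of Tbx20 was 2.50 in replicate 1 and 2.55 in replicate 2. Mef2a followed with 1.54 and 1.28, Mef2c with 1.32 and 1.03, and Meis1 with 1.04 and 0.84. Tbx5 was next, with 0.97 and 0.22. Medians were negative in both replicates in the other five: Gata4 with −0.45 and −0.01, Gata6 with −0.23 and −0.38, Mef2d with −0.76 and −0.64, Hand2 with −1.29 and −1.86, and Nkx2-5 with −2.49 and −2.70. Across 8866 genes with at least 5 clusters in both replicates, the median of the gene medians was 0.36 in each replicate, and 70.7% of genes were positive in both.

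With 2 values per gene, this order is a description. The replicate values of Tbx20 did not overlap those of Mef2a, and those of Tbx5 did not overlap those of Gata4. Those of Gata6 and Mef2d, of Mef2d and Hand2, and of Hand2 and Nkx2-5 did not overlap either, though Hand2 and Nkx2-5 rest on 2 or 3 clusters per replicate. Values overlapped between Mef2a and Mef2c, between Mef2c and Meis1, between Meis1 and Tbx5, and between Gata4 and Gata6, so those neighbours differ by no more than their spread. Replicate values that do not overlap are no test, and the gap between Tbx5 and Gata4 (0.22 against −0.01 at the nearest) is small.

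Among the T-box factors, Tbx20 and Tbx5 stood far apart. Tbx20 (Entrez gene 57246, chromosome 9 from 24720812 to 24774303, minus strand, 53.5 kb) encodes a factor needed for heart growth and for keeping adult heart muscle working. It held 68 clusters in replicate 1, of which 25 (36.8%) were enriched, and 65 in replicate 2, of which 22 (33.8%) were enriched. Its folds ran between −1.24 and 6.51 in replicate 1 and between −1.62 and 5.63 in replicate 2, and 66 and 63 of its clusters were above 0. Its median exceeded that of 98.1% of the ranked genes in replicate 1 and 98.7% in replicate 2. Among 4131 genes of 0.5 to 2 times its span, the figures were 98.6% and 99.2%. Of 4108 genes with at least 20 clusters in both replicates, 29 had a larger enriched share in replicate 1 and 18 in replicate 2. Tbx20 was thus near the top of all genes by share, though 87 of the 13373 genes held more reproducible clusters than its 19 in replicate 1.

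Ranked by the lower of the replicate folds, the first shared site of Tbx20 lay 12.3 kb from the 5′ end of its span, on chromosome 9 at 24761877 to 24762088 (replicate 1) and 24761902 to 24762079 (replicate 2). Its log2 fold was 6.20 and 5.63, with −log10 p of 26.3 and 17.4. A site 45.0 kb from the 5′ end, at 24729177 to 24729398 (replicate 1) and 24729136 to 24729398 (replicate 2), had 6.51 and 5.36, with −log10 p of 66.3 and 42.0. The order of these sites is not resolved, since their folds differ by less than the spread between lysates. Between these sites, 3 regions lay within 0.997 kb of one another, from 24743909 to 24744905, and held 9 reproducible clusters in replicate 1 and 7 in replicate 2. The leading pairs there had log2 folds of 4.55 and 5.20 (clusters sharing 5 nt), 5.06 and 4.22, and 4.27 and 4.03 (sharing 12 nt). Between 50 and 75% of the way along the span lay 18 of the 25 enriched clusters in replicate 1 and 15 of the 22 in replicate 2, and also 28 of its 68 and 31 of its 65 clusters in all. Many of these clusters abut. Tbx20 had 1.27 clusters per kb in replicate 1 and 1.22 in replicate 2, and a mean over the replicates of 0.77 once touching clusters were joined. The median ranked gene had 0.56 and 0.57 clusters per kb, unjoined. The other 6 regions of Tbx20 each stood alone, and its 9 regions spread over 39.07 kb. The region nearest its 5′ end, from 24768038 to 24768205, had highest log2 folds of 3.30 and 3.68.

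Tbx5 (Entrez gene 21388, chromosome 5 from 119796514 to 119885220, plus strand, 88.7 kb), whose loss causes the limb and heart defects of Holt-Oram syndrome in people, held 42 and 48 clusters. A single cluster was enriched in replicate 1, with a log2 fold of 3.23 on chromosome 5 from 119879631 to 119879740, and 0 were enriched in replicate 2. The best overlapping pair was that cluster and one of 2.76 in replicate 2, which shared 9 nt. The next best, from 119842089 to 119842190 in replicate 1, had 2.90 and 2.76 with −log10 p of 7.06 and 5.71, just under the fold threshold in both replicates. Tbx5 therefore had sites above input in both lysates that the calling threshold leaves out. One cluster in its span lay on the opposite strand, within the lncRNA gene Gm5563, at a log2 fold of −1.38.

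The MEF2 factors, which drive muscle genes and respond to calcium and stress signals through class IIa histone deacetylases, split in the same way. Mef2a (Entrez gene 17258, chromosome 7 from 67231163 to 67376456, minus strand, 145.3 kb) held 132 clusters in replicate 1, 21 of them enriched (15.9%), and 127 in replicate 2, 18 of them enriched (14.2%). Mef2c (Entrez gene 17260, chromosome 13 from 83504017 to 83667079, plus strand, 163.1 kb), needed for forming the right ventricle, held 80 clusters with 14 enriched (17.5%) and 87 with 9 enriched (10.3%). Mef2d (Entrez gene 17261, chromosome 3 from 88141941 to 88172091, plus strand, 30.2 kb), which mediates the stress response of the adult heart, held 34 and 31 clusters and 0 were enriched in either replicate. The highest log2 fold in Mef2d was 1.01 in replicate 1 and 1.56 in replicate 2. Its best overlapping pair had 0.96 and 1.56. All clusters in Mef2d thus lay below the folds of the called sites in its paralogues.

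The regions of Mef2a gathered in a tight block. Of its 10 regions, 5 lay within 2.106 kb, on chromosome 7 from 67253665 to 67255770 and held 9 reproducible clusters in replicate 1 and 8 in replicate 2. The highest fold of each of these 5 regions was between 4.30 and 6.01 in replicate 1 and between 4.27 and 5.16 in replicate 2. The leading pair of the gene, 122 kb from its 5′ end, spans 67254428 to 67254521 in replicate 1 and 67254428 to 67254511 in replicate 2, with log2 folds of 4.95 and 5.16. It was followed by pairs with 5.77 and 4.91, 5.09 and 4.59, 4.51 and 4.42, and 4.30 and 4.27, all within the block. Outside it, a region 45.7 kb from the 5′ end (67330666 to 67330819) had 5.69 and 4.21, and 2 regions within 0.782 kb of each other near the start of the gene (67366912 to 67367693) had highest folds between 3.52 and 3.88 in replicate 1 and between 4.37 and 4.62 in replicate 2. Between 50 and 75% of the way along Mef2a, by contrast, lay 24 clusters in each replicate, 0 of them enriched.

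All enriched clusters of Mef2c lay beyond its innermost start site. The annotation used here lists 3 start sites for it, the innermost at 83573607, and all 14 enriched clusters of replicate 1 and all 9 of replicate 2 were downstream of that one, the nearest by 19.8 kb. Of all its clusters, 63 of 80 and 66 of 87 were downstream of the same site. The leading pairs abut on chromosome 13: from 83616914 to 83617033 with log2 folds of 5.39 and 4.49, from 83616768 to 83616913 with 4.42 and 5.60, and from 83617034 to 83617107 with 4.57 and 4.42, by the coordinates of replicate 1. Further pairs lay at 83593337 to 83593449, with 5.41 and 3.83, and at 83654119 to 83654300, with 5.16 and 3.74. All 5 regions of Mef2c fall within the spans of the lncRNA genes Gm52043 and Gm52044, which are annotated on the opposite strand and held 0 clusters on their own strand in either replicate.

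**Figure D2:**
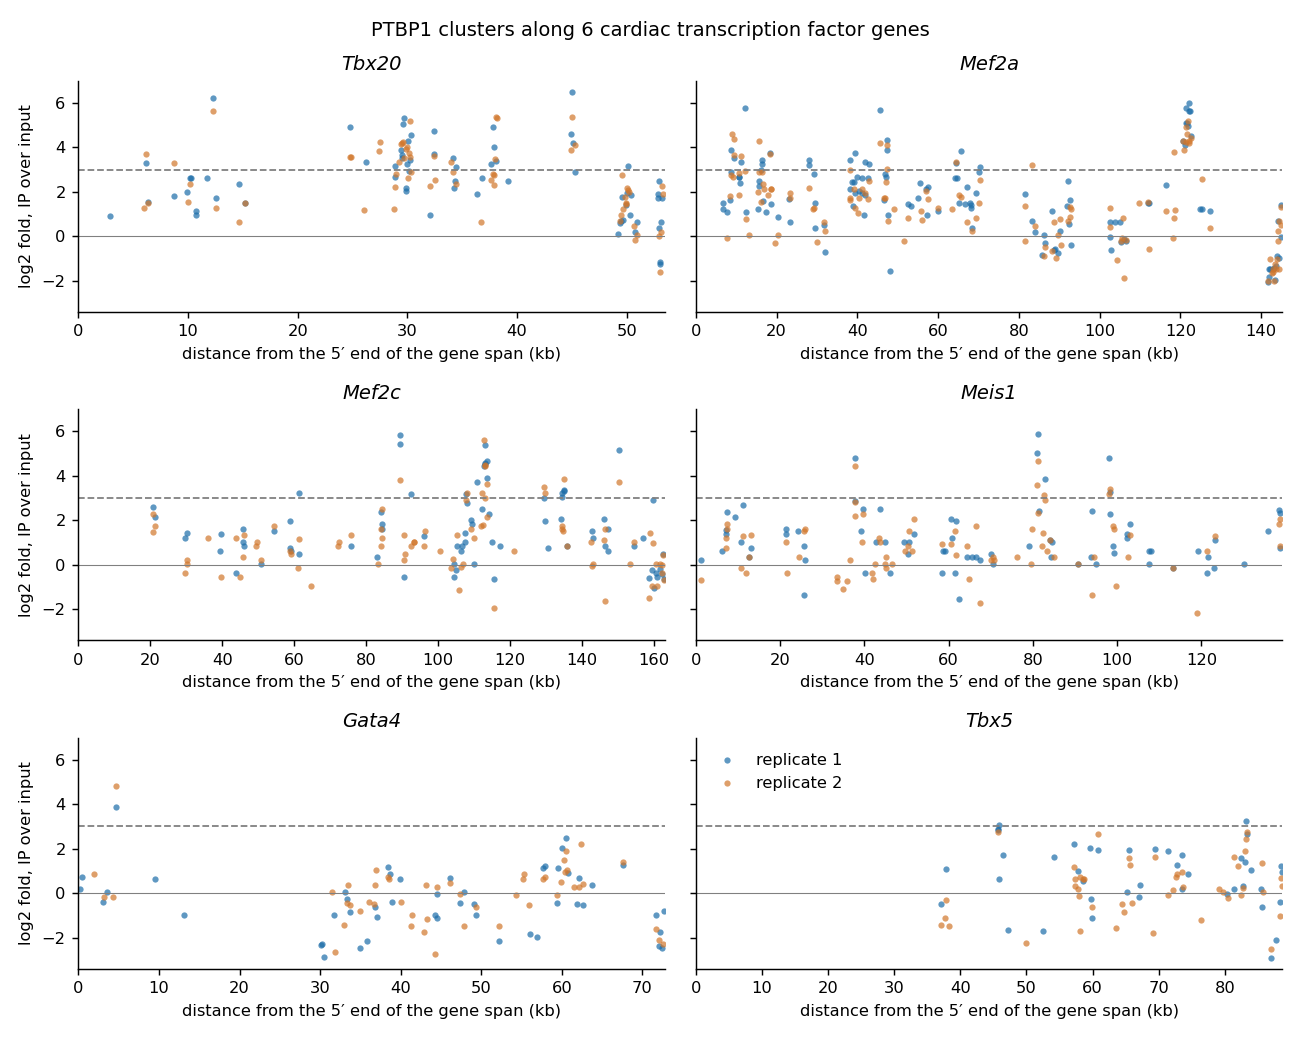
Log2 fold of the PTBP1 immunoprecipitate over its input (vertical axis) for each cluster against the distance of its midpoint from the 5′ end of the gene span in kb (horizontal axis), for 6 genes with at least 1 enriched cluster in either replicate. Blue points are replicate 1, orange points replicate 2, and the dashed line is the log2 fold of 3 used for calling. The 5 regions of Mef2a between 67253665 and 67255770 form the narrow column of points at the right of its panel, and most of its folds in the last 5 kb lie below 0.

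Meis1 (Entrez gene 17268, chromosome 11 from 18880428 to 19019651, minus strand, 139.2 kb), the gene of a homeobox factor, had few sites, but strong ones. It held 77 clusters with 5 enriched (6.49%) in replicate 1 and 80 with 4 enriched (5.00%) in replicate 2, shares close to those of all clusters given above. Its leading pair, from 18938427 to 18938560 in replicate 1, had log2 folds of 5.86 and 4.65, and the cluster next to it 5.01 and 3.59. A site 37.7 kb from the 5′ end, from 18981904 to 18982066, had 4.80 and 4.42. The last of its 3 regions, from 18921431 to 18921559, reached 4.81 and 3.18.

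The GATA factors, zinc-finger proteins that open heart enhancers, showed little enrichment. Gata4 (Entrez gene 14463, chromosome 14 from 63198914 to 63271712, minus strand, 72.8 kb) held 50 clusters in each replicate and 1 enriched cluster in each, at the same place. It lay at 63267025 to 63267166 (replicate 1) and 63267023 to 63267166 (replicate 2), 4.62 kb from the 5′ end of the span, with log2 folds of 3.86 and 4.80 and −log10 p of 8.42 and 9.20. All other clusters of Gata4 stayed below the threshold. Only 20 and 25 of the 50 were above 0 (40% and 50%), against 72.9% and 71.5% of all clusters. Gata6 (Entrez gene 14465, chromosome 18 from 11052510 to 11085636, plus strand, 33.1 kb) held 31 and 34 clusters, 0 of them enriched. Its best pair had 2.88 and 2.30, with −log10 p of 5.31 and 3.83.

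The remaining genes, those of the homeodomain factor NKX2-5 and the basic helix-loop-helix factor HAND2, are short and held few clusters. In Nkx2-5 (Entrez gene 18091, chromosome 17 from 26838664 to 26844988, minus strand, 6.3 kb) the 3 clusters of replicate 1 had log2 folds of −3.32, −2.49 and −2.32, and the 3 of replicate 2 had −2.70, −2.77 and −2.45. In Hand2 (Entrez gene 15111, chromosome 8 from 57320983 to 57324517, plus strand, 3.5 kb) the 2 clusters of replicate 1 had −0.96 and −1.61, and the 3 of replicate 2 had −2.90, −1.86 and −1.79. All were more abundant in the input than in the immunoprecipitate. Their best overlapping pairs had −2.49 and −2.70 in Nkx2-5 and −1.61 and −1.79 in Hand2.

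**Figure D3:**
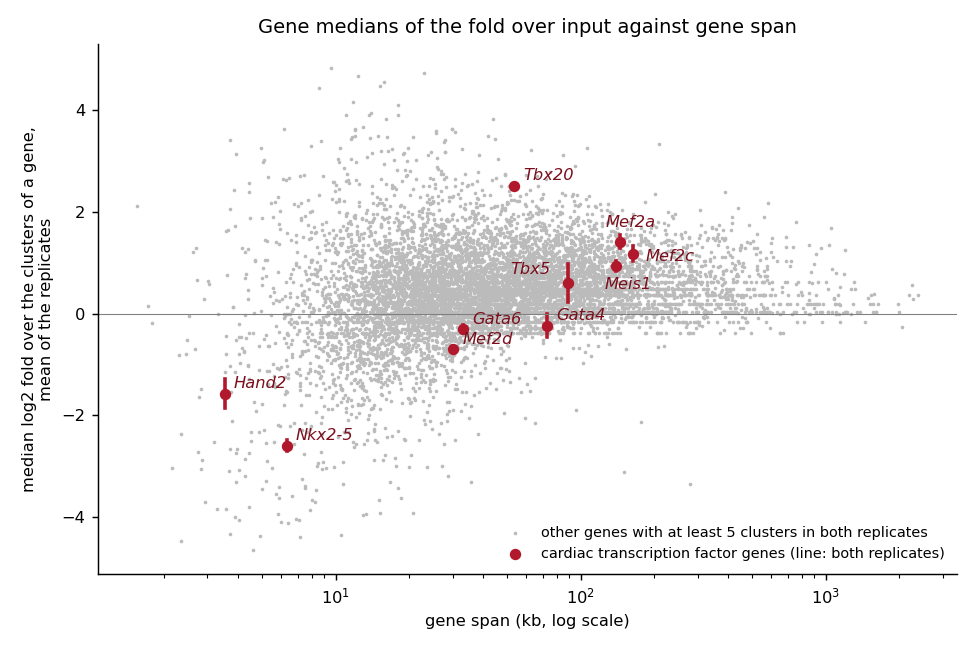
Median log2 fold over the clusters of a gene, as the mean of both replicates (vertical axis), against the span of the gene in kb (horizontal axis, log scale). Red points are the 10 cardiac transcription factor genes, with a line joining the replicates, and grey points are other genes with at least 5 clusters in both replicates, 8866 ranked genes in all including the members that qualify. Tbx20, at 53.5 kb, lies near the upper edge, and the short genes Hand2 and Nkx2-5 lie low.

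Longer genes of the set had higher medians. Spearman's correlation of span with median was 0.77 in replicate 1 and 0.79 in replicate 2 over the 10 genes, which share both lysates and were chosen with results known. Over the 8866 ranked genes it was 0.20 and 0.21. Tbx20 departed from this order, having the sixth longest span and the highest median. How far span had a part in the other differences was not tested.

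Having many clusters was not the same as having enriched ones. Mef2d had 1.13 clusters per kb in replicate 1 and 1.03 in replicate 2, and Gata6 had 0.94 and 1.03, all above the median ranked gene, with 0 enriched clusters in either. Clusters covered 8.41% and 8.26% of the span of Mef2d, against 9.80% and 9.93% in Tbx20 and 3.94% and 4.29% in Mef2c. Mef2c, with 0.49 and 0.53 clusters per kb, thus had fewer clusters for its length than Mef2d, and it held 5 reproducible regions. Positive folds made up 97.1% and 96.9% of the clusters of Tbx20, 83.8% and 81.6% of those of Mef2c, and 20.6% and 12.9% of those of Mef2d. Over the whole set they made up 73.4% and 69.7%, close to the 72.9% and 71.5% of all clusters. Enriched clusters of the set were longer than its clusters in general, with a median of 113 nt in replicate 1 and 122.5 nt in replicate 2, against 68 and 66 nt. Enriched clusters over the whole tables had 130 and 131 nt.

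The share of clusters with a partner in the other lysate varied between genes, and did not follow enrichment throughout. What set it was not tested. Counting any overlap between replicates, whatever the fold, 80.9% and 86.2% of the clusters of Tbx20, 72.7% and 74.0% of those of Mef2a and 78.8% and 70.1% of those of Mef2c had a partner. In Meis1 the shares were 58.4% and 56.3%, and in Gata4 52.0% and 50.0%. Among genes without a reproducible cluster they were 66.7% and 58.3% in Tbx5, 64.7% and 67.7% in Mef2d, and 54.8% and 47.1% in Gata6. Over the whole set they were 68.6% and 66.1%, against 56.0% and 54.4% of all clusters. Of the enriched clusters of the set, 65 of 67 and 50 of 54 had such an overlap.

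In Mef2a, Tbx20 and Mef2c, and in others of the set, the last 5 kb of the gene held more clusters per kb than the rest did on average. Hardly any of the clusters there were enriched. The last 5 kb of Mef2a held 2.60 clusters per kb in replicate 1 and 3.00 in replicate 2, against 0.85 and 0.80 in the rest of the gene. The median log2 fold there was −1.44 and −1.23, against 1.84 and 1.60 in the rest, and 0 of its 13 and 15 clusters were enriched. In Tbx20 the last 5 kb held 20 and 18 clusters with medians of 0.85 and 1.32, against 3.12 and 3.32 in the rest. Only 1 and 0 of these were enriched, against 24 and 22 in the rest, and both negative clusters of Tbx20 in each replicate lay there. In Mef2c the medians were −0.40 and 0.00 in the last 5 kb and 1.50 and 1.08 in the rest. Clusters were also denser in the last 5 kb of Mef2d, with 3.80 and 2.60 per kb against 0.60 and 0.72 in the rest. In Tbx5 there were 1.60 and 1.20 per kb against 0.41 and 0.50. Gata6 and Meis1 went the same way by less, and the replicates of Gata4 went opposite ways. The medians of the other genes did not all follow. Medians in the last 5 kb were higher in Meis1, with 1.90 and 1.85 over 4 and 3 clusters, against 0.84 and 0.74 in the rest. They were lower in Gata4, with −1.74 and −2.09 against −0.38 and 0.26, and in Tbx5, with −0.08 and 0.18 against 1.16 and 0.22. The replicates went opposite ways in Gata6, with −0.38 and 0.36 against −0.23 and −0.38, and in Mef2d, with −0.67 and −0.71 against −1.03 and −0.48.

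Taking the 10 genes as a whole, 3 of 67 enriched clusters (4.48%) in replicate 1 and 1 of 54 (1.85%) in replicate 2 lay in the last 10% of the span, against 18.1% and 15.3% of all clusters of these genes. With the fold threshold lowered to 1, the shares were 10.8% and 14.8%. Exons, introns and UTRs were not assigned, because the annotation used here gives spans and start sites only.

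Replicates agreed in these genes about as in the whole tables. Over the 356 pairs, Pearson's correlation of the log2 folds was 0.87 and Spearman's 0.86. Over all pairs they were 0.79 and 0.74. Clusters of 1 lysate pair share that library, so these are descriptions across clusters and not across animals. Replicate 1 was higher by a median of 0.18 log2 units in the set and by 0.13 overall. Single clusters could differ by more than the general spread: in Mef2a the cluster from 67254268 to 67254427 had 6.01 in replicate 1 and its partner 4.21 in replicate 2.

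**Figure D4:**
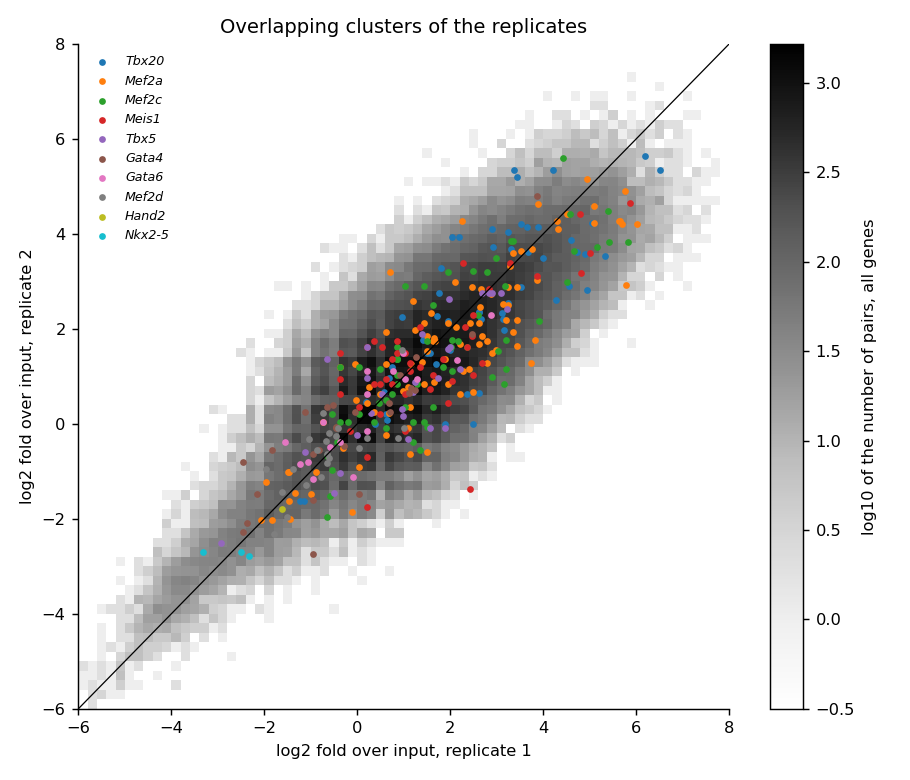
Log2 fold over input in replicate 2 (vertical axis) against replicate 1 (horizontal axis) for overlapping clusters. Coloured points are the 356 pairs in the 10 genes, grey shading is the log10 of the number of pairs among all 210643, and the line marks equal folds. Points of Tbx20, Mef2a and Mef2c fill the upper right, and those of Nkx2-5 the lower left.

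Among the relatives and partners of these factors, called PTBP1 sites again differed between close family members, as did the number of clusters. Of 13 paralogues chosen for comparison, 9 held clusters in both replicates and 1, Meis2, held reproducible clusters. It had 11 in replicate 1 and 12 in replicate 2, with a leading pair of 5.14 and 4.87. Meis2 also held 102 of the 146 clusters in these paralogues in replicate 1 and 125 of the 170 in replicate 2. Whether the calls follow the number of clusters was not tested. With the members, reproducible clusters lay in 1 of 5 GATA genes with clusters in both replicates, in 2 of 4 MEF2 genes and in 2 of 3 MEIS genes. Of the 6 T-box genes looked at, 5 had clusters in both replicates and 1 held a reproducible one. Other T-box genes were not looked at. Of 23 partners and cofactors, 22 held clusters in both replicates and 13 held a reproducible one. Over all genes with clusters in both replicates, 25.2% held a reproducible one, without matching for the number of clusters per gene. Single partners held up to 424 clusters in replicate 1 and 494 in replicate 2. Among them were the class IIa histone deacetylase genes Hdac5, Hdac9 and Hdac7, whose products hold MEF2 proteins in check. Their leading pairs had log2 folds of 5.54 and 5.16 in Hdac5, 5.03 and 5.29 in Hdac9, and 5.78 and 4.85 in Hdac7.

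The genes that these factors switch on had lower medians. The enriched share of their pooled clusters was not lower, but most of these enriched clusters lay in Ryr2. Of 16 target genes, 15 held clusters in both replicates and 2 held a reproducible one: Ryr2, the calcium release channel, with a leading pair of 5.60 and 5.46, and Myh6, the α-myosin heavy chain, with 5.07 and 4.70. That is 2 of 15 targets, against the 25.2% of all genes given above, again not matched for the number of clusters per gene. Of the clusters in targets, 8.47% in replicate 1 and 5.81% in replicate 2 were enriched, against 7.78% and 5.55% in partners and the 6.31% and 4.71% of all clusters. Ryr2 alone held 56 of the 66 enriched target clusters in replicate 1 and 43 of the 47 in replicate 2. It also held 524 of their 779 and 534 of their 809 clusters in all, so the pooled share mainly describes that gene. The median of the gene medians was −1.80 in replicate 1 and −1.83 in replicate 2 for the targets, 0.73 and 0.52 for the partners and 0.36 and 0.36 for all ranked genes. In 12 of the 15 targets the median was negative in both replicates. The lists were chosen with results of these data known, and none was tested.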

How the data were processed

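PTBP1 eCLIP clusters came in a table for each replicate, without pooling. Tools in the submitters' processing notes, whose roles they do not state, are STAR 2.6.0c, cutadapt 2.7 and UMI-tools 0.5.1. For the cluster caller and its test, the name is not given in the sources used here. Per the file headers, each cluster carries the authors' log2 fold of immunoprecipitate over input and the authors' −log10 p, which stops at 400. Many folds take stepped values, high ones as well as low ones. Among all clusters of these genes, 48.9% (replicate 1) and 43.9% (replicate 2) had folds at whole multiples, within 0.01, of 1 step. Over all clusters of the whole tables the shares were higher, 67.2% and 64.4%. On the log2 scale that step is −1.96 and −1.97, respectively. The leading pair of Tbx20 stood at 286 and 194 steps. Its pair with log2 folds of 5.06 and 4.22 stood between whole steps, at 129.667 and 72.8. What the steps reflect was not tested. The replicates had 196 clusters with identical coordinates, and 0 of these shared a fold.

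The build is mm10, the same assembly as GRCm38: the last cluster on chromosome 1 ends at 195161571. Coordinates count from 1. Gene spans, and the start sites that give the strand of 7 genes, come from RefSeq tables of GRCm38.p6. The strands of Gata4, Gata6 and Tbx5 follow from the clusters that no other gene span contains (at least 3, at least 90% on 1 strand). A gene's leading pair is the overlapping pair whose lower fold is highest, and up to 5 pairs are named per gene, and up to 4 genes per list, of which 1 is not reported here. Counts, medians and ranks were computed with Python 3.11.15, pandas 2.3.3 and numpy 2.4.6, and the scripts were tested on simulated data. No test was made: the tables hold 1 fold per cluster and lysate, and values per sample were not used here. Members and lists were chosen with earlier results of these data known. Cluster sequences were not analysed here.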

Additional observations from a re-analysis of the deposited data

How the results depend on the processing

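The counts of called clusters followed the fold threshold. At a log2 fold of at least 4 there were 37 enriched clusters in replicate 1 and 30 in replicate 2, 24 reproducible clusters (replicate 1) and 4 genes with one. At a log2 fold of at least 1 there were 88 enriched in replicate 2, 79 reproducible and 7 genes. Without Tbx20, chosen after seeing the data, 42 and 32 were enriched and 29 reproducible. Joining touching clusters left 28 regions in place of 48 clusters. With either replicate left out, between 54 and 67 clusters and between 5 and 6 genes were called.

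The median over the 10 genes of the mean replicate median was 0.18. It became 0.50 when clusters were weighted by length, 0.52 over clusters overlapping the other replicate, between 0.10 and 0.37 with a replicate left out, and −0.65 when positive clusters needed a −log10 p of at least 3. The last of these removes only positive clusters, and it also turned Tbx5 to −0.46 and Meis1 to −0.27. Gata4 turned to 0.14 and Gata6 to 0.16 under length weighting, and Gata6 to 0.073 over overlapping clusters, so the sign of these genes is not settled. The cause was not tested. Tbx20, Mef2a and Mef2c stayed positive, and Mef2d, Hand2 and Nkx2-5 negative, in all settings that gave them a value. In the last 10% of the span, enriched clusters at a log2 fold of at least 1 were 10.8% in replicate 1 and 14.8% in replicate 2, against 4.48% and 1.85% at 3. No paired analysis was possible because no test was run to which a replicate block could be added; the deposited folds themselves already pair each immunoprecipitate with its own input.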
